A study of Homo sapiens with 6 samples.

Results

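A set of 10 genes that report on signalling through the kinase ERK were examined in LX2 cells. They were found by matching the Ensembl identifiers of the deposited table, without version, to the symbols DUSP4, DUSP5, DUSP6, SPRY2, SPRY4, SPRED1, SPRED2, ETV4, ETV5 and PHLDA1. All 10 of the 10 symbols matched 1 identifier each, out of 58243 in the table, and all 10 were among the 18775 genes that passed the filter on low values. LX2 cells derive from human hepatic stellate cells, which lay down collagen in the injured liver, and were grown in an activated state in medium with serum. Control cells, of unmodified genotype, received a control small interfering RNA (siNC), and knockdown cells received small interfering RNA against the transcript of Aurora kinase A, AURKA (siAURKA). RNA was sequenced after 48 h in 3 libraries per group. A single cell line was used, and the sequences of the small interfering RNAs are not given here. Nothing in the labels ties a replicate to its own culture, so the p-values cover the spread between libraries, which may be technical.

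ERK is the last kinase of the RAS, RAF, MEK and ERK cascade, which carries signals from growth factor receptors to the nucleus. Active ERK induces its own brakes. The phosphatases DUSP4, DUSP5 and DUSP6 remove the activating phosphates from ERK, while Sprouty (SPRY) and SPRED proteins act further up, on RAS and RAF activation. ETV4 and ETV5 are ETS transcription factors whose transcripts are induced by the cascade, and PHLDA1 is a pleckstrin homology-like protein whose transcript is a commonly used readout of ERK output. In stellate cells the pathway is best known as a mediator of proliferation driven by platelet-derived growth factor.

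Promoter windows show what start-site sequence the members do and do not have in common. RefSeq windows (GRCh38.p14) from 250 bases before to 50 bases after a start site were on hand for 6 members, in 9 windows, covering DUSP6, SPRY2, SPRY4, SPRED1, SPRED2 and PHLDA1. The windows of DUSP6, SPRY4 and PHLDA1, for which both libraries numbered 2 lay above the other 4, and the SPRED2 window that holds the only AP-1 matches are printed 5′ to 3′. The windows of SPRY2, for which the same held, are not printed. Capitals mark motif matches.
DUSP6 (chr12:89352452-89352751, minus strand): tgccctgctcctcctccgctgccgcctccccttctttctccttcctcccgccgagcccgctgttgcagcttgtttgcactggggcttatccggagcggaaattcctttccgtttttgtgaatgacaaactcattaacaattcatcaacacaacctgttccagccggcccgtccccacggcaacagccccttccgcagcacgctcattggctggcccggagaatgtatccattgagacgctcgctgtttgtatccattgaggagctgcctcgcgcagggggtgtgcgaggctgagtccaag
SPRY4 (chr5:142324198-142324497, minus strand): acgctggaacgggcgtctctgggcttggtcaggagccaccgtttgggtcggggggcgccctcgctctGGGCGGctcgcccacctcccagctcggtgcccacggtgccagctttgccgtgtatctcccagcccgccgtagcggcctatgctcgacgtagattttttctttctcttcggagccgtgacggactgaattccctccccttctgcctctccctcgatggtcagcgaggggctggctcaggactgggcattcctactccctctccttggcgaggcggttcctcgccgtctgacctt
PHLDA1 (chr12:76031727-76032026, minus strand): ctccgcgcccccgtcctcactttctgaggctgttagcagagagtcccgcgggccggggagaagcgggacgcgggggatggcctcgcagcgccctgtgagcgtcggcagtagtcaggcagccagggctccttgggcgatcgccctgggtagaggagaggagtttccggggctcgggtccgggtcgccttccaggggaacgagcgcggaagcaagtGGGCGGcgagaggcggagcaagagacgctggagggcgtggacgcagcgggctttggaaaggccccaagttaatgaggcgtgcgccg
SPRED2 (chr2:65366729-65367028, minus strand): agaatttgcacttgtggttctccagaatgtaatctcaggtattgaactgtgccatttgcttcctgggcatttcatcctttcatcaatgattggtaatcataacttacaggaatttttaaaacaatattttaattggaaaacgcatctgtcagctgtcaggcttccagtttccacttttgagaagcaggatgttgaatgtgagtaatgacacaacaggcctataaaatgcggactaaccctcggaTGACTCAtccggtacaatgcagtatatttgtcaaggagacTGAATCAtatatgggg
Both strands were searched for the ETS motif CCGGAAGT, the cyclic AMP response element TGACGTCA, the AP-1 motif TGANTCA, the GC box GGGCGG and the CArG box of serum response elements, and no matches of different motifs overlapped. None of the 9 windows held the ETS motif, the cyclic AMP response element or the CArG box, which occur in 4.14%, 1.85% and 1.29% of all 35116 promoter windows. The AP-1 motif was found in 1 window, with 2 matches in SPRED2, against 7.71% of all windows. The GC box was found in 6 of 9, against 45.0% of all windows. The GC content of the 9 windows ran from 39.3% to 76.3% with a median of 63.0%, where the median of all windows was 58.7%.

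Deposited totals ran from 23366242 (siNC replicate 2) to 53357402 units (siAURKA replicate 1). Low values were multiples of 4 more often than even spacing gives, at 30.3% to 34.0% of the values from 1 to 24, so a unit may be less than a fragment. Read that way, a floor of 3 fragments is 0.225 to 0.514 CPM, for counting error only, and every member lay above it in every library. The stellate and mesenchymal markers COL1A1 and VIM were at 1071 to 1880 and 4491 to 9999 CPM, while others of the 12 listed were low, with ACTA2 at 11.2 to 20.4, COL1A2 at 2.86 to 11.9, THY1 at 2.87 to 7.28 and DES at 0 to 0.8401 CPM. LRAT, a marker of quiescent stellate cells, was at 0.0477 CPM or less. Of 8 hepatocyte markers, ALB, APOB and TTR were listed at 0 in all 6 libraries and SERPINA1 alone passed the filter, at 15.04, 45.6 and 29.8 CPM in siNC and 17.8, 34.5 and 21.4 CPM in siAURKA. AURKA was at 135.8, 128.0 and 95.02 CPM in siNC replicates 1, 2 and 3 and at 49.8, 47.0 and 51.1 CPM in siAURKA. The groups did not overlap, and the log2 fold change was -1.28 (SE 0.28), with adjusted p = 0.9999 by edgeR's quasi-likelihood test, 0.0314 by DESeq2, and 0.497 and 1.39e-06 by edgeR and DESeq2 with the replicate number as a block.

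None of the 10 ERK genes changed with AURKA knockdown at an adjusted p of 0.05 in edgeR's quasi-likelihood test or in any alternative fit. edgeR called 0 of all 18775 genes as well (0%), with unadjusted p-values below 0.05 for 0 members and 1.26% of all genes. DESeq2 called 0 members and 0.0905% of genes, edgeR with the replicate block 0 members and 0% of genes, and DESeq2 with the replicate block 0 members and 1.31% of genes. Unadjusted p-values below 0.05 were found for 0 members and 1.82% of genes by DESeq2. With the replicate block they were found for 1 member, DUSP4, by each tool, beside 8.48% of genes by edgeR and 9.70% by DESeq2. The members' fitted log2 fold changes (siAURKA over siNC) ran from -0.76 for ETV4 to 0.07 for SPRED2, with a median of -0.32 against -0.012 for all genes, and 8 of 10 were below 0 where 51.5% of all genes were. Without siNC replicate 2 alone that median was 0.12. With the replicate block and number 2 left out of both groups it was -0.094. Because siAURKA replicate 2 was also high for most members, leaving out siNC replicate 2 alone raises their values. Values without siNC replicate 2 here and below are therefore not a balanced comparison. The groups overlapped for all 10 members, where 5.85% of all genes had groups that did not. In a bulk sample, fewer cells with an active pathway and less RNA per cell cannot be told apart.

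Same-numbered libraries gave different medians. The 10 genes had a median log2 ratio of 0.16 in pair 1, -0.53 in pair 2 and -0.32 in pair 3, where the medians of all genes were -0.018, 0.031 and 0.004. DUSP4 and SPRY4 were lower after siAURKA in all 3 pairs, or 2 of 10 members, beside 17.6% of all genes, and 0 members were higher in all 3 pairs, beside 17.9% of all genes.

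**Figure D1:**
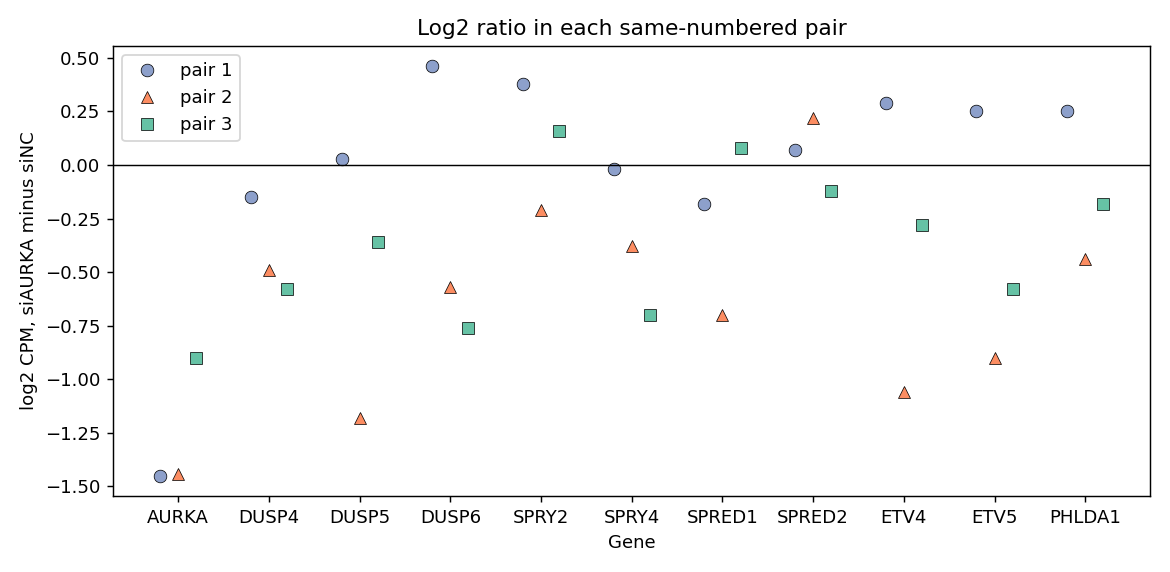
Log2 ratio of CPM, siAURKA over siNC (y axis), in each same-numbered pair of libraries for AURKA and the 10 ERK genes (x axis); circles, triangles and squares are pairs 1, 2 and 3. AURKA is below 0 by 0.90 or more in each pair, whereas DUSP4 and SPRY4 alone among the 10 are below 0 in all 3, SPRY4 by 0.02 in pair 1.

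Among the phosphatases, DUSP4 was lower after siAURKA in every pair. This nuclear phosphatase (chromosome 8, 29333064 to 29350668, minus strand, GRCh38) was at 30.4, 77.6 and 33.1 CPM in siNC replicates 1, 2 and 3 and at 27.3, 55.4 and 22.1 CPM in siAURKA. Both libraries numbered 2 were high, and the groups overlapped. By edgeR the log2 fold change was -0.43 (SE 0.51, 95% interval -1.61 to 0.76) with adjusted p = 0.9999 by edgeR. With the replicate block it was -0.41 (SE 0.15, interval -0.80 to -0.02), where edgeR gave an adjusted p of 0.581, or 0.0432 unadjusted, and DESeq2 0.389. Across tests that left out 1 library the unblocked value ran from -0.92 to 0.14, the latter without siNC replicate 2. With the block and number 2 left out of both groups, DUSP4 was at -0.36.

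DUSP5, a nuclear phosphatase selective for ERK (chromosome 10, 110497838 to 110511544, plus strand), was at 18.8, 68.1 and 29.5 CPM in siNC and at 19.2, 30.1 and 22.9 CPM in siAURKA. Only siNC replicate 2 stood well above the others, and the pair ratios on the log2 scale were 0.03, -1.18 and -0.36. The log2 fold change of -0.69 (SE 0.50, 95% interval -1.85 to 0.47, adjusted p = 0.9999 by edgeR) was -0.0018 without siNC replicate 2.

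DUSP6, the cytoplasmic phosphatase of ERK (chromosome 12, 89347232 to 89353271, minus strand), was at 19.6, 46.3 and 17.1 CPM in siNC and at 26.9, 31.1 and 10.1 CPM in siAURKA. The pairs disagreed in direction, with log2 ratios of 0.46, -0.57 and -0.76. Over all libraries the log2 fold change was -0.28 (SE 0.55, 95% interval -1.56 to 0.99, adjusted p = 0.9999 by edgeR), and 0.31 without siNC replicate 2. With the replicate block and number 2 left out of both groups it was -0.14. Of the exonic bases of DUSP6, 40.5% lie in exons of the antisense gene AC024909.2, which held 75 to 338 units per library beside 453 to 1493 for DUSP6. As no source says that strand was used in counting, reads of this pair cannot be told apart.

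**Figure D2:**
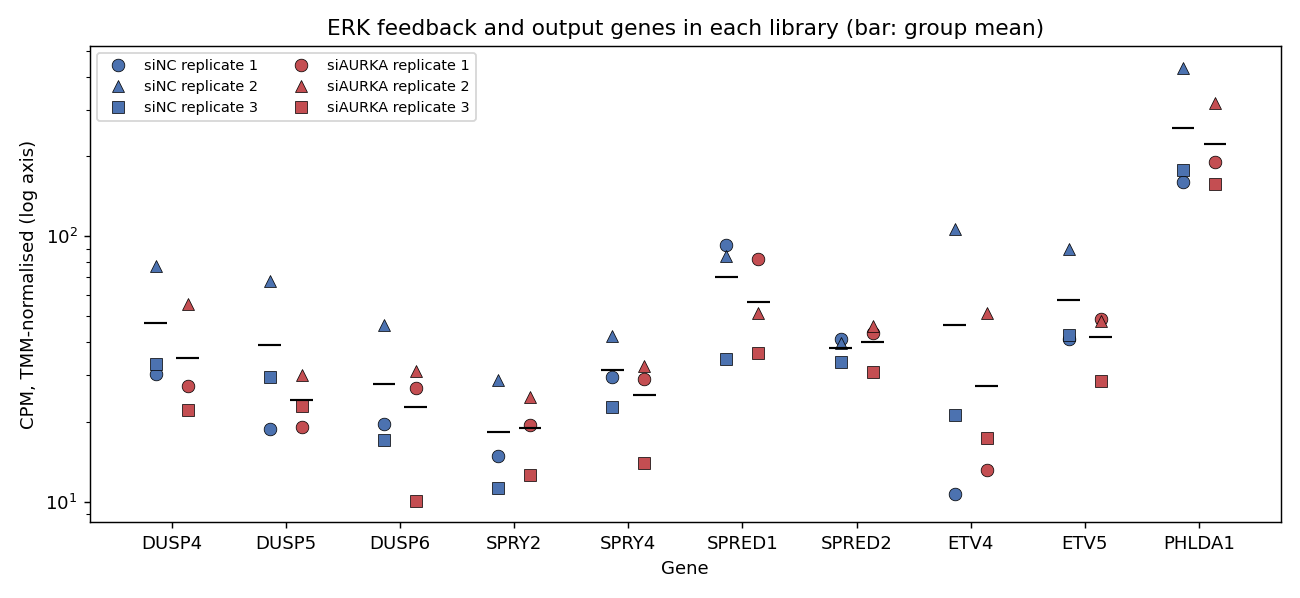
TMM-normalised CPM (y axis, log scale) of the 10 ERK genes (x axis) in siNC (blue) and siAURKA (red) libraries; circles, triangles and squares are replicates 1, 2 and 3 and bars are group means. The triangle is the highest siNC point for 8 genes, as for ETV4 at 106.9 CPM against 10.7 and 21.2 CPM, and red and blue points overlap for every gene.

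The Sprouty inhibitors differed from each other in their pairs. SPRY2 (chromosome 13, 80335976 to 80340951, minus strand) was at 14.9, 28.7 and 11.3 CPM in siNC and at 19.5, 24.8 and 12.6 CPM in siAURKA. Its group means were 18.3 ± 9.18 and 19.0 ± 6.09 CPM (SD, n = 3), a log2 fold change of 0.05 (SE 0.44, 95% interval -0.98 to 1.08, adjusted p = 0.9999 by edgeR). SPRY2 was higher after siAURKA in pairs 1 and 3 and lower in pair 2.

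SPRY4 (chromosome 5, 142310427 to 142326455, minus strand) was at 29.6, 42.2 and 22.7 CPM in siNC and at 29.04, 32.5 and 14.02 CPM in siAURKA. The pair ratios were -0.02, -0.38 and -0.70 on the log2 scale, so that pair 1 barely differed. The log2 fold change was -0.32 (SE 0.41, 95% interval -1.28 to 0.64, adjusted p = 0.9999 by edgeR), or -0.37 (SE 0.19) with the replicate block. Without siNC replicate 2 it was -0.05, and without siAURKA replicate 3 it was -0.04.

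The SPRED genes, whose products bind RAS and the RAS GTPase activator neurofibromin, differed from the Sprouty genes in their order over the libraries. SPRED1 (chromosome 15, 38252326 to 38357249, plus strand) was at 93.0, 84.0 and 34.4 CPM in siNC and at 82.2, 51.6 and 36.3 CPM in siAURKA. It was low in both libraries numbered 3 and highest in siNC replicate 1. Its log2 fold change was -0.31 (SE 0.47, 95% interval -1.41 to 0.78, adjusted p = 0.9999 by edgeR), and -0.69 without siAURKA replicate 1 or -0.05 without siNC replicate 1.

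SPRED2 (chromosome 2, 65310851 to 65432637, minus strand) varied least, at 41.2, 39.5 and 33.5 CPM in siNC and 43.1, 46.0 and 30.9 CPM in siAURKA. Its group means were 38.1 ± 4.03 and 40.02 ± 8.004 CPM (SD, n = 3). The log2 fold change was 0.07 with the narrowest interval of the 10 genes, -0.60 to 0.75 (adjusted p = 0.9999 by edgeR), and -0.31 to 0.42 with the replicate block.

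The ETS factor ETV4 had the widest spread between libraries. ETV4 (chromosome 17, 43527844 to 43579620, minus strand) was at 10.7, 106.9 and 21.2 CPM in siNC and at 13.2, 51.4 and 17.4 CPM in siAURKA. Both libraries numbered 2 were far above the other 4. Its fitted log2 fold change of -0.76 (SE 0.89, 95% interval -2.83 to 1.31, adjusted p = 0.9999 by edgeR) was -0.35 with the replicate block, and without siNC replicate 2 it was 0.78.

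ETV5 (chromosome 3, 186046308 to 186110318, minus strand) was at 41.1, 89.4 and 42.5 CPM in siNC and at 49.0, 47.9 and 28.5 CPM in siAURKA. Here siNC replicate 2 was high, and siAURKA replicate 2 lay within the range of the rest. The log2 fold change of -0.47 (SE 0.41, 95% interval -1.43 to 0.50, adjusted p = 0.9999 by edgeR) was 0.0011 without siNC replicate 2. In pairs 1, 2 and 3 the log2 ratios were 0.25, -0.90 and -0.58.

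PHLDA1 (chromosome 12, 76025447 to 76033932, minus strand) was the most abundant member, at 160.0, 432.6 and 177.4 CPM in siNC and 190.9, 319.1 and 156.9 CPM in siAURKA. Both libraries numbered 2 were again the highest. Its log2 fold change was -0.21 (SE 0.47, 95% interval -1.31 to 0.90, adjusted p = 0.9999 by edgeR), and 0.40 without siNC replicate 2. Of its exonic bases 16.5% lie in exons of antisense genes, of which AC011611.3 held 700 to 1462 units beside 6334 to 10583 for PHLDA1.

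**Figure D3:**
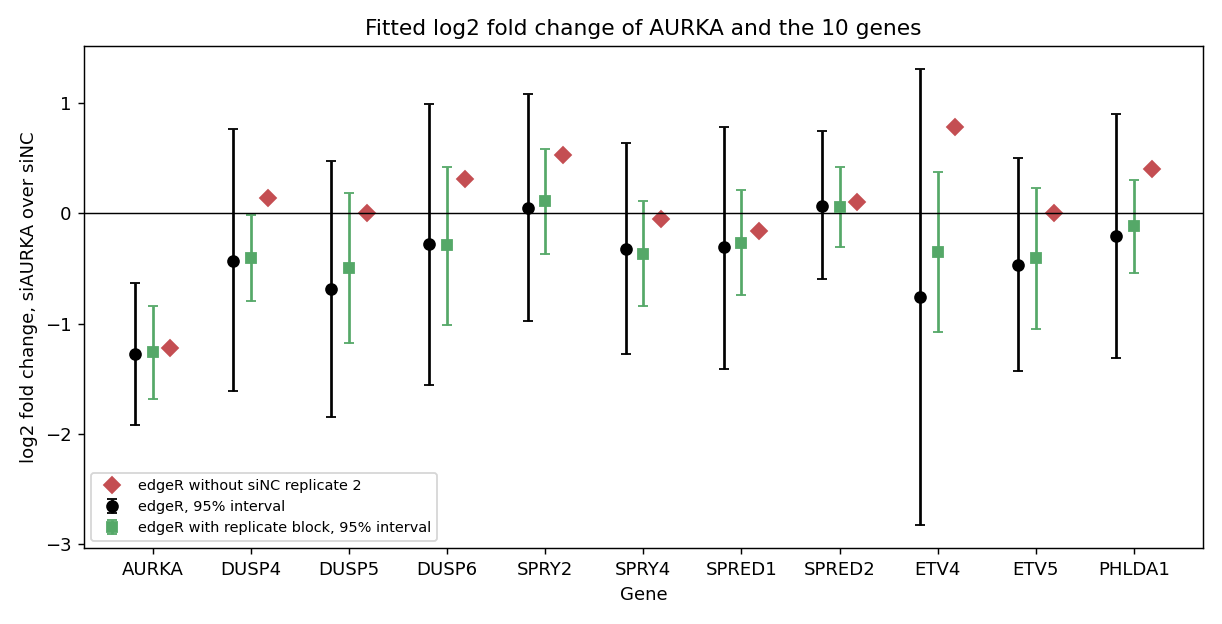
Log2 fold change, siAURKA over siNC (y axis), for AURKA and the 10 ERK genes (x axis) by edgeR (black) and by edgeR with the replicate block (green), with 95% intervals, and by edgeR without siNC replicate 2 (red diamonds, no interval). The unblocked intervals of the 10 genes all include 0, and of the blocked ones that of DUSP4, -0.80 to -0.02, does not.

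The intervals bound what these libraries can show. A halving, or -1 on the log2 scale, lay inside the unblocked 95% interval of 8 of the 10 genes, the exceptions being SPRY2 and SPRED2. With the replicate block it lay inside that of 4, which were DUSP5, DUSP6, ETV4 and ETV5. Exact unpaired permutation tests (two-sided, on log2 CPM) gave p from 0.5 to 0.9 for the 10 genes. They ignored replicate number, so the spread between numbers enters these p-values. With 3 against 3 libraries they cannot go below 0.1.

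Across libraries, replicate number took a larger share of the variation than treatment for each of the 10 genes. Both libraries numbered 2 lay above the other 4 for 7 members (DUSP4, DUSP5, DUSP6, SPRY2, SPRY4, ETV4 and PHLDA1), against 17.6% of all genes. The margin was small for DUSP5, at 30.1 CPM in siAURKA replicate 2 against 29.5 CPM in siNC replicate 3. For SPRY4 it was 32.5 CPM in siAURKA replicate 2 against 29.6 CPM in siNC replicate 1. The highest library was siNC replicate 2 for those 7 and ETV5, or 8 of 10, against 25.2% of all genes. This pattern was noticed in the data and is a description. Of the variation of log2 CPM over the 6 libraries, replicate number took 58.1% (ETV5) to 92.5% (SPRY2) and treatment 1.19% (PHLDA1) to 17.4% (ETV5). Over all genes the medians were 74.1% and 7.07%, and for AURKA the shares were 2.33% and 93.7%. DUSP5 (67.9%) and ETV5 lay below the all-gene median for number. DUSP4 (10.7%), DUSP5 (16.0%), SPRY4 (13.7%) and ETV5 lay above that for treatment, and the other members below it. Replicate number has more levels than treatment and so takes a larger share even of noise.

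The mean of the members' log2 CPM, each centred on its own mean, was -0.23, 0.92 and -0.31 in siNC replicates 1, 2 and 3 and -0.09, 0.35 and -0.64 in siAURKA. Without SPRED1 and SPRED2, Pearson's r between members ran from 0.52 to 0.96 over the 6 libraries, with a median of 0.86 over 28 gene pairs. SPRED1 correlated with the other 9 at 0.04 to 0.73 and SPRED2 at 0.01 to 0.79. Those points share libraries, depth and replicate number, so these values are a description.

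**Figure D4:**
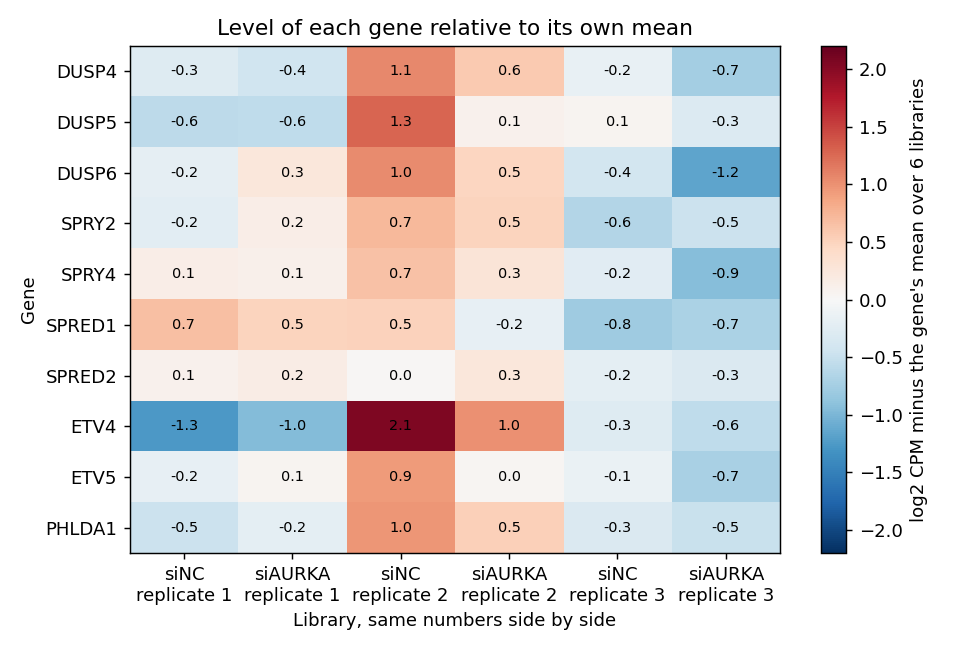
Log2 CPM of each ERK gene (rows) minus its own mean over the 6 libraries (colour and printed values), with same-numbered libraries side by side (columns). The column of siNC replicate 2 is the highest for 8 of the 10 genes, whereas SPRED1 is highest in siNC replicate 1 and SPRED2 in siAURKA replicate 2.

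The libraries numbered 2 differed in other ways as well. siNC replicate 2 had the smallest total and a count-weighted mean GC content of 53.3%, and siAURKA replicate 2 had 52.2%, where the other 4 libraries had 49.2% to 51.5%. MALAT1, a long RNA kept in the nucleus, was at 410.5, 72.5 and 187.3 CPM in siNC and at 348.6, 145.3 and 191.9 CPM in siAURKA, lowest in the libraries numbered 2. Marker sums were highest in siNC replicate 2 for 3 of 4 lists of other cell types. The sum of the 12 stellate and mesenchymal markers, of which VIM holds most, was also highest there, at 12663 CPM against 6909 to 11907 in the other 5 libraries. Of the 11 tested, 3 were highest in siNC replicate 2, whereas COL1A1, COL1A2, COL3A1 and PDGFRB were lowest in it. The 8 hepatocyte markers, of which SERPINA1 holds nearly all, summed to 45.6 CPM in siNC replicate 2 and 15.3 to 34.5 in the other 5 libraries. The 5 cholangiocyte markers, of which SOX9 holds most, summed to 97.9 and 40.7 to 62.6 CPM. The 6 leukocyte and macrophage markers, of which CD68 holds most, summed to 125.9 and 50.6 to 107.9 CPM, with the leukocyte gene PTPRC at 2.13 CPM or less. The 5 endothelial markers were lowest there, at 3.91 CPM against 7.28 to 15.2. In siNC the excess of replicate 2 over the mean of the other replicates had a median of 1.21 on the log2 scale for the members and -0.06 for all genes. In siAURKA the medians were 0.67 and 0.00. That excess correlated with the GC content of a gene's longest transcript at r = 0.69 (siNC) and 0.70 (siAURKA) across the 10 members, and at 0.40 and 0.33 across 18717 genes. SPRED1 has the lowest GC content of the members, 38.9%, and ETV4 the highest, 60.8%. Genes are not independent replicates, and the part of GC content, depth, MALAT1 or those markers in the members' pattern was not tested.

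Per length, PHLDA1 stood highest and SPRY4 lowest. In siNC the mean was 31.8 ± 18.9 CPM per kb of exon for PHLDA1, 14.8 ± 9.93 for DUSP5, 12.8 ± 14.6 for ETV4, 9.95 ± 4.74 for ETV5 and 8.53 ± 3.83 for SPRED1 (SD, n = 3). SPRED2 followed with 7.39 ± 0.782, DUSP4 with 6.48 ± 3.65, SPRY2 with 6.04 ± 3.02, DUSP6 with 5.97 ± 3.49 and SPRY4 with 4.797 ± 1.503 CPM per kb. These levels use all annotated exonic bases. Each neighbouring pair in that order lay within its spread. In siAURKA PHLDA1 was at 27.6 ± 10.6 and SPRY4 at 3.84 ± 1.496 CPM per kb, again the ends of the order, and PHLDA1 lay above the next gene, DUSP5 at 9.198 ± 2.12, by more than their spread.

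Closest relatives of the members were tested next. Of 13 such genes 10 passed the filter, with a median log2 fold change of -0.30, 8 values below 0, and 4 genes lower and 0 higher in all 3 pairs. Over all genes 51.5% had values below 0. In all 3 pairs 17.6% of all genes were lower and 17.9% higher, shares that also stand beside the counts of the lists below. The median of the relatives was 0.03 without siNC replicate 2. DUSP7, a cytoplasmic phosphatase of ERK, was at 64.5, 91.6 and 76.7 CPM in siNC and at 41.5, 54.5 and 49.5 CPM in siAURKA, without overlap. Its log2 fold change was -0.68 (SE 0.28), and edgeR gave an adjusted p of 0.9999, or 0.0463 unadjusted. DESeq2 with the replicate block called it, with an adjusted p of 0.00693, and without siNC replicate 2 the edgeR value was -0.54. DUSP1, a phosphatase of several MAP kinases, had -0.71, or 0.11 without siNC replicate 2. SPRY3 had -0.89, or -0.05 without siNC replicate 1 alone, and neither was called by any fit. Both libraries numbered 1 were high for SPRY3, at 8.6 and 4.51 CPM against 1.29 to 3.05 CPM in the others, so that value is not balanced. With the replicate block and number 1 left out of both groups SPRY3 was at -0.82. Its log2 ratios in pairs 1, 2 and 3 were -0.92, -0.37 and -1.21.

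Upstream, transcripts of the growth factor ligands and receptors gave no call in any of the 4 fits with all libraries. Of 11 ligands 8 were tested, with a median of -0.20, or -0.06 without siNC replicate 2, and 3 lower and 1 higher in all 3 pairs. PDGFB, a chain of platelet-derived growth factor, was at 10.2, 23.7 and 12.3 CPM in siNC and 4.6, 7.41 and 9.70 CPM in siAURKA, without overlap. Its log2 fold change was -1.09 (SE 0.46), and edgeR gave an adjusted p of 0.9999, or 0.0458 unadjusted. Without siNC replicate 2 it was -0.63. The PDGFA chain had -0.37, or -0.17 without siNC replicate 3, and FGF2 had -0.42, or -0.04 without siNC replicate 2. With the replicate block and the same number left out of both groups, PDGFA was at -0.36 and FGF2 at -0.14. Of 11 receptors 10 were tested, with a median of -0.18, or -0.26 without siNC replicate 2, and 5 lower and 1 higher in all 3 pairs. ERBB2 had -0.30, its relative ERBB3 -0.32 and the platelet-derived growth factor receptor PDGFRB -0.35, the last at -0.64 without siNC replicate 2 and -0.04 without siNC replicate 1.

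The cascade itself lay close to 0. Its 19 genes, all tested, had a median log2 fold change of 0.01, with 11 above and 8 below 0, and 5 lower and 1 higher in all 3 pairs. KSR1, a scaffold that holds RAF, MEK and ERK together, was at 24.2, 6.92 and 33.2 CPM in siNC and 13.6, 3.89 and 10.8 CPM in siAURKA. Its groups overlapped, and edgeR fitted -1.18 (SE 0.66, adjusted p = 0.9999), or -1.60 without siNC replicate 2 and -0.72 without siNC replicate 3. DESeq2 with the replicate block called it with an adjusted p of 0.0097. NRAS had -0.52, and the RAS relative MRAS had 1.05, with 35.9 CPM in siAURKA replicate 1 and 5.76 to 10.3 CPM in the other 5 libraries. The 8 RAS GTPase activators and inhibitors of RAF activation had a median of -0.11, or -0.16 without siNC replicate 2, with 0 called by any fit, with RASA3 at 0.49, DAB2IP at -0.60 and RASAL2 at -0.82.

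Other outputs of the cascade had fitted values below 0 for all 12 genes tested, where 51.5% of all genes were. Their median log2 fold change was -0.53. The list was chosen with earlier results of these data known, so this direction is a description. Without siNC replicate 2 that median was 0.06. Of the 12, 11 were highest in siNC replicate 2, against 25.2% of all genes. In all 3 pairs 4 were lower and 0 higher, against 17.6% and 17.9% of all genes. Their summed level was 12471 CPM in siNC replicate 2 and 3076 to 6574 CPM in the other 5 libraries. CCND1, which encodes the G1 cyclin D1, was at 1054, 1449 and 726 CPM in siNC and 547, 694 and 225 CPM in siAURKA, without overlap. Its log2 fold change was -1.14 (SE 0.47), and edgeR gave an adjusted p of 0.9999, or 0.0418 unadjusted, while DESeq2 with the replicate block called it. Without siNC replicate 2 alone it was -0.86, and with the replicate block and number 2 left out of both groups it was -1.31. The chemokine CXCL8 had -1.22, with 847 CPM in siNC replicate 2 and 72.4 to 230 CPM in the others, and UPP1, a uridine phosphorylase, had -0.71. CXCL8 was at 0.59 and UPP1 at -0.14 without siNC replicate 2. With the replicate block and number 2 left out of both groups, CXCL8 was at 0.18 and UPP1 at -0.56.

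Immediate early genes, the fast transcriptional response to ERK, had 13 tested members with a median of -0.28, or 0.09 without siNC replicate 2, and 0 called by any fit. JUNB had -0.72, FOSB -0.65 and KLF10 -0.48, and 2 genes were lower and 2 higher in all 3 pairs. JUNB was at 0.10 and FOSB at 0.0911 without siNC replicate 2. With the replicate block and number 2 left out of both groups, JUNB was at -0.39 and FOSB at -0.18. FOSL1 and EGR1, named after their values were seen, moved differently between libraries. FOSL1 was at 357, 1341 and 573 CPM in siNC and 490, 1103 and 409 CPM in siAURKA, highest in the libraries numbered 2. EGR1 was at 32.3, 8.54 and 13.3 CPM in siNC and 39.9, 16.7 and 14.2 CPM in siAURKA, highest in those numbered 1. The 12 ERK substrates and ETS partners had a median of -0.07, or 0.12 without siNC replicate 2, and 0 called by any fit. The repressor ERF was at -0.56, RPS6KA1 at -0.34 and ELK3 at 0.52, and without siNC replicate 2 ERF was at 0.15 and ELK3 at 0.09. With the replicate block and number 2 left out of both groups, ERF was at -0.20 and ELK3 at 0.11.

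Outside these lists, the genes whose profile over the 6 libraries came closest to the members' mean were PLIN2 (Pearson's r = 0.995), PPRC1 (0.992), the pseudogene AL513477.1 (0.991), ARHGEF2 (0.991) and LOX (0.989). PLIN2, which encodes a lipid droplet protein, was at 27.0, 63.5 and 25.4 CPM in siNC and at 27.7, 44.8 and 18.8 CPM in siAURKA. LOX, a collagen-crosslinking lysyl oxidase, was at 124.0, 217.1 and 107.9 CPM in siNC. An r of 0.9 or more was reached by 336 of 14644 eligible genes, or 2.29%, over 6 libraries that fall into numbered pairs.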

How the data were processed

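RNA from LX2 cells was sequenced in 3 siNC and 3 siAURKA libraries, grouped and numbered by their labels. The authors deposited 1 table of whole-number values for 58243 Ensembl genes, read here as estimated counts without scaling, and rounding altered nothing. Reads were aligned with HISAT2 to GRCh38, per the submitters' processing notes. Which tool counted them, whether by strand and on which annotation, is not given in the sources used here. Symbols, positions and exonic lengths came from GENCODE release 29 (57980 identifiers matched). The main fit used edgeR's quasi-likelihood test after filterByExpr and TMM scaling, siAURKA against siNC without covariates, with Benjamini-Hochberg adjustment over all 18775 genes kept (edgeR 4.0.16, R 4.3.3). Alternatives were DESeq2 1.42.0, replicate blocks, RLE size factors, no filter, and leaving out libraries. The standard error is the log2 fold change divided by the root of F. CPM values are TMM-normalised, and log2 CPM and pair ratios use a prior count of 2. Simulated data were run through the main fit, unblocked DESeq2 and the replicate-block fit of either tool, and through none of the other alternatives. The main fit made no false calls there but missed the changed genes. The rest of the fits run made more false calls than their threshold allows, DESeq2 with the block the most.

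Deviations from the group means correlated at 0.647, 0.477 and 0.302 between libraries numbered 1, 2 and 3, all above 0.1. The pair ratios and the replicate-block fits therefore treated libraries of the same number as pairs, while the main fit did not. Standard errors, intervals and p-values given without the block ignore replicate number. The labels give no batch or day behind the numbers, and the pairing rests on the data. The members and lists were chosen with earlier results of these data known. Named genes are AURKA, the members, in each signalling list the 3 tested genes with the smallest p and any gene called by a fit, and the 5 genes with a mean value of at least 50 most like the members' mean profile.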

Additional observations from a re-analysis of the deposited data

How the results depend on the processing

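The count of 0 members called by edgeR held in all alternatives, and 2 members were lower in all 3 pairs with RLE size factors too and, in an alternative added after seeing the data, in pairs 1 and 3 alone. Over all genes edgeR called 0, DESeq2 17, DESeq2 with the replicate block 246, and edgeR with the replicate block 0, or 3 without replicate 2 in both groups. Leaving out 1 library gave 0 to 2 calls, the 2 without siAURKA replicate 2. AURKA passed the threshold with DESeq2 at -1.29 (adjusted p 0.0314) and with DESeq2 and the replicate block at -1.28 (1.39e-06). With the replicate block the members' median log2 fold change was -0.323, and no member's call changed. That median ran from -0.577 to 0.121 when 1 library was left out, the latter without siNC replicate 2. With the replicate block and number 2 left out of both groups it was -0.094.

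Of 140 alternative values for the members, 125 kept their direction and 15 changed sign, the cause of which was not tested. Leaving out 1 library gave -0.92 to 0.14 for DUSP4, -0.58 to 0.31 for DUSP6, -0.20 to 0.53 for SPRY2, -0.0367 to 0.22 for SPRED2, -1.59 to 0.78 for ETV4, -0.65 to 0.0011 for ETV5 and -0.56 to 0.40 for PHLDA1. With the replicate block and without 1 number in both groups, SPRY2 was at -0.0351 without number 1, and SPRED2 at -0.021, ETV4 at 0.0105, PHLDA1 at 0.0439 and CXCL8 at 0.18 without number 2. In that fit without number 2, DUSP4 was at -0.36, DUSP5 -0.16, DUSP6 -0.14, SPRY2 0.28, SPRY4 -0.35, SPRED1 -0.0465 and ETV5 -0.16. Of the other named genes, leaving out 1 library turned the sign of DUSP1, MRAS, RASAL2, JUNB, FOSB, CXCL8 and ERF, with ranges of -1.10 to 0.11, -0.0857 to 1.46, -2.07 to 1.15, -1.21 to 0.10, -0.94 to 0.0911, -1.70 to 0.59 and -0.93 to 0.15 in that order.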
